A study of Mus musculus with 12 samples.

Results

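The replication-dependent histone genes are the clustered Hist1, Hist2, Hist3 and Hist4 genes, which encode the H1 linker histone and the H2A, H2B, H3 and H4 core histones. They were taken as every row of the deposited tables whose gene name begins with Hist1h, Hist2h, Hist3h or Hist4h, which gave 70 of the 44760 genes present in both tables, whatever their counts. They comprised 6 H1, 20 H2A, 19 H2B, 12 H3 and 13 H4 genes. On the GENCODE map of GRCm38, 56 lie on chromosome 13, 10 on chromosome 3, 3 on chromosome 11 and 1 on chromosome 6, and 67 are annotated as protein coding and 3 as pseudogenes.

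RNA was from the hippocampus of male APPswe/PS1dE9 (APP/PS1) mice on a C57BL/6 background (N9B6). All 4 groups carry the transgenes for Swedish-mutant amyloid precursor protein and exon 9-deleted presenilin 1, which give amyloid plaques, and no mice without the transgenes are part of the design. Mice of 7 or 18 months received nicotine hydrogen tartrate (48 mg/kg/h as the labels state it) or saline from an osmotic pump under the skin for 14 days, and each age had 3 libraries from saline-infused and 3 from nicotine-infused mice. The labels do not say whether the libraries of a group came from separate mice, so p-values measure the spread between libraries. Each age is a table of its own, and age therefore cannot be told apart from any difference in how the libraries of each table were made.

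Most messenger RNAs end in a poly(A) tail. The replication-dependent histone mRNAs are the known exception: their 3′ end is cut a few bases after a short stem-loop that the stem-loop binding protein SLBP holds, they carry no tail, and they accumulate in S phase, when new DNA is packed into nucleosomes. In cells that no longer divide, such as neurons, most of these genes are little used, while some give longer transcripts that read past the stem-loop to a poly(A) site, and the replacement histones H3.3 and H2A.Z are made from ordinary polyadenylated mRNAs.

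The stem-loop is shown first because the tail-less histone mRNAs end just after it. It is encoded in the gene, so its presence in a model does not show which end a transcript has. A stem of 6 base pairs opening with GG, around a 4-base loop of TTT and any base, was searched in the longest GENCODE transcript model of each gene. It was found in 43 members. The sequences are given as DNA, 5′ to 3′, with the loop in capitals. The first was shared by 25 members of the H1, H2A, H2B and H3 classes, the second by 7 H4 genes and the third by 6 H1, H2B and H3 genes, while the fourth is that of Hist1h4i and Hist2h4, the fifth of Hist1h4b and Hist1h4j, and the sixth of Hist2h2ac.
common H1, H2A, H2B and H3 form: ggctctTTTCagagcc
common H4 form: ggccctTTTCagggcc
TTTA loop form: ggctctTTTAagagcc
Hist1h4i and Hist2h4: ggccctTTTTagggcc
Hist1h4b and Hist1h4j: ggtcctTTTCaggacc
Hist2h2ac: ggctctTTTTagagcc
Stem and loop thus differed between members at few positions, and every H4 stem differed from that of the other classes. The same search found the stem-loop in 32 of 55271 genes that are not members (0.0579%).

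The 2 annotations end these genes at different places. In GENCODE, 21 models end within 75 bases of the stem-loop, 22 run more than 75 bases past it, and 27 show no such stem-loop. In RefSeq (GRCm38.p6), 41 of the 43 genes end 4 to 8 bases past it, and only the models of Hist1h2be and Hist1h3e run more than 75 bases on. For Hist3h2a the GENCODE model runs 1643 bases past the stem-loop and the RefSeq model 5. Which annotation the reads were counted over is not given in the sources used here. In the 7-month table, 10209 gene names start with LOC, a naming style of NCBI, which makes RefSeq, and 3 of these are gene names in GENCODE M21. The release and the gene ends counted over are still not given, so a member's counts may or may not include sequence past the stem-loop, and counts of different genes were not converted to levels per length.

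**Figure D1:**
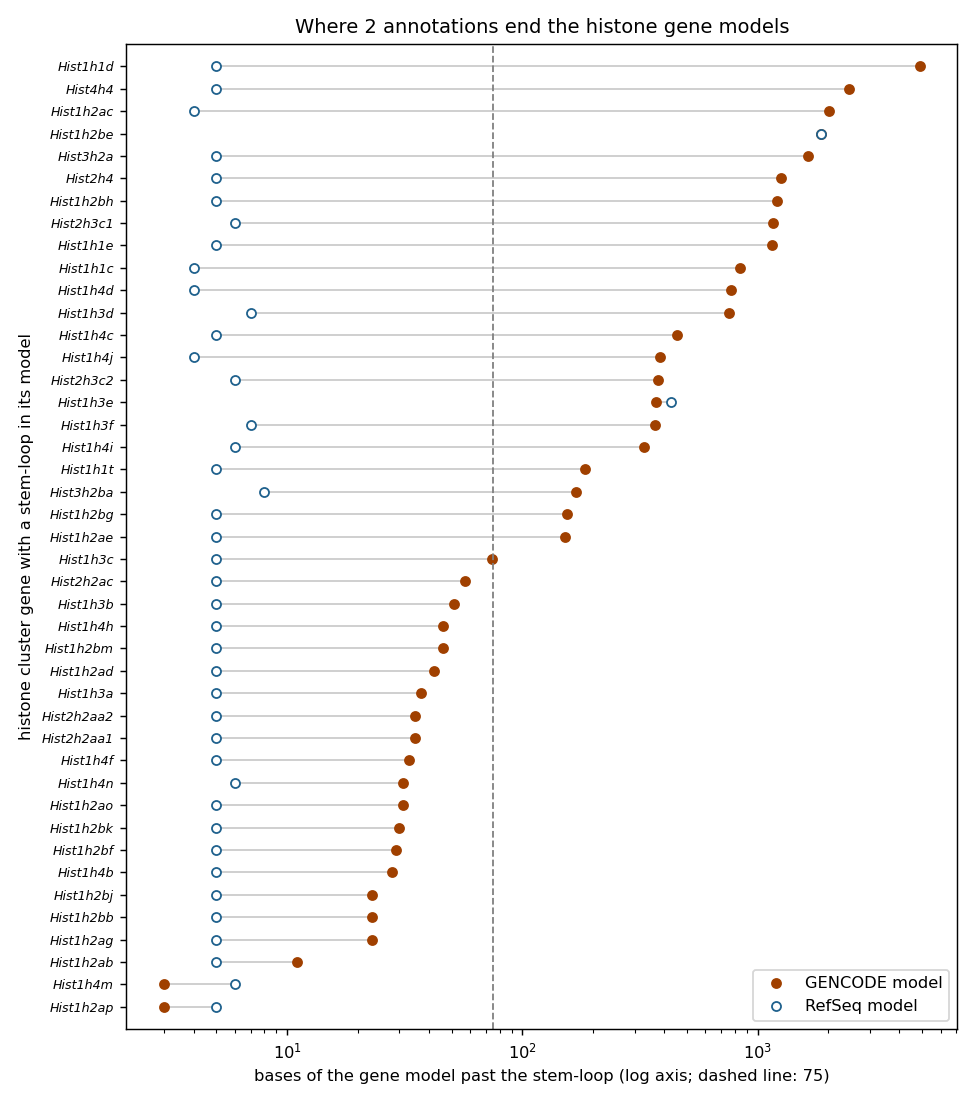
Bases of each gene model that lie past the stem-loop (log axis) for the 43 members with a stem-loop, in GENCODE (filled) and RefSeq (open), with a dashed line at 75 bases. GENCODE places 22 models beyond the line and RefSeq 2.

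Sequencing depth was 25071195 to 29245972 counts per library at 7 months and 21260068 to 23715015 at 18 months. The members together received 3244 to 5620 counts per library at 7 months and 1842 to 2337 at 18 months. Hist3h2a and Hist1h2bc made up 52.3% of all member counts, and these with Hist1h1c and Hist3h2ba 75.8%. At the other end, 6 members had 0 counts in all 12 libraries and 30 had 1 to 24 counts in total. The filter on low counts left 20 members in the fits of 12 libraries and 18 in the fit of each age. In the fits by age, Hist4h4, Hist1h4k and Hist2h4 passed it at 18 months only. Hist1h2ba and Hist1h4h passed it at 7 months only. These members entered the age comparisons through the age where their values were higher. The 50 members left out held 55 to 117 counts per library at 7 months and 71 to 85 at 18 months, so most of the cluster was measured with a few counts per library. With no filter, 64 members were tested and 3 of those otherwise left out were called, all higher at 18 months. Hist2h3b, with 34 counts in all, was called in saline (log2 2.93, edgeR adjusted p = 0.00895), Hist1h4m, with 51, in nicotine (2.57, adjusted p = 0.0053), and Hist1h2ao, with 23, in saline and nicotine (3.39 and 2.96, adjusted p = 0.0203 and 0.0434). These 3 were named after their values were seen, each has a copy that is identical or nearly so, and 27.3% of all genes were called in that fit in saline and 35% in nicotine.

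Some libraries stood apart. Both 7-month libraries numbered 3 held more of several noncoding RNAs, described with the sums below, and 7-month nicotine 1 held Ttr at 5876 and Gh at 89.6 CPM (counts scaled to library size), genes of choroid plexus and pituitary. In 7-month saline 2 several members lay near their 18-month values, as given gene by gene. All 7 hippocampal neuron markers were detected, among them Snap25 at 1406 to 2058 CPM, and their differences with age are given with the other marker lists. All CPM are scaled by TMM factors (a between-library scaling) unless said, and means are given ± SD with n = 3.

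The first question was how these genes differed between 7 and 18 months. In saline-infused mice 8 of the 20 tested members were lower at 18 months and 1 was higher, by edgeR's quasi-likelihood test at a Benjamini-Hochberg adjusted p under 0.05. Over all 19171 genes tested, 24.6% were lower and 21.5% higher. In nicotine-infused mice 10 members were lower and 2 higher, against 29.8% and 29.5% of all genes. The median log2 fold change of the tested members was -0.54 in saline and -0.77 in nicotine, and that of all genes -0.03 in both. The lower calls in both infusions were shared by 6 members, which is 6 of the 8 in saline and 6 of the 10 in nicotine. Some calls were of members that passed the filter by age only at the age where their values were higher. They were Hist4h4 in saline, and Hist1h4k, Hist1h2ba and Hist1h4h in nicotine. In bulk tissue fewer cells of a type and less RNA per cell cannot be told apart.

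**Figure D2:**
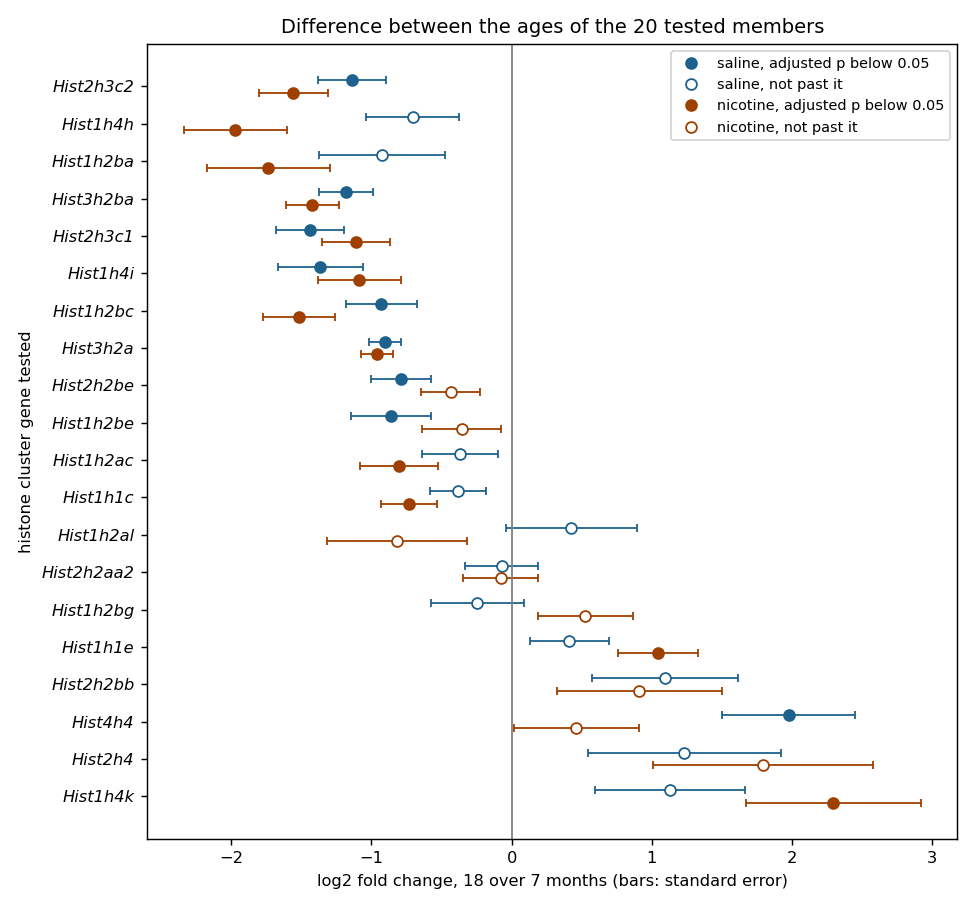
log2 fold change of 18 over 7 months for the 20 tested members, with standard errors, in saline (blue) and nicotine (brown), with filled points past an adjusted p of 0.05. Of the 9 filled points in saline 8 lie left of 0, and of the 12 in nicotine 10 do.

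Among the H2A genes, which encode a core histone that pairs with H2B, Hist3h2a carried the most counts of all members. It lies at chr11:58954685-58956830 on the plus strand (GENCODE, GRCm38). It measured 57.3, 43.1 and 48.5 CPM in 7-month saline, 60.4, 57.4 and 56.8 in 7-month nicotine, 26.9, 23.4 and 29.2 in 18-month saline and 32.0, 28.4 and 29.3 in 18-month nicotine. Every 7-month library was above every 18-month library. The log2 fold change was -0.90 ± 0.11 (SE) in saline (edgeR adjusted p = 0.000187) and -0.96 ± 0.11 in nicotine (adjusted p = 6.3e-05). The far end of its GENCODE model overlaps Trim17 on the same strand (709 identical bases), and Trim17, a ubiquitin ligase gene, was higher at 18 months by 0.68 in saline and 0.80 in nicotine on the log2 scale (adjusted p = 0.0168 and 0.00523).

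Hist3h2ba, an H2B gene next to Hist3h2a (chr11:58948920-58949533), measured 20.2, 12.2 and 21.5 CPM in 7-month saline, 20.4, 23.5 and 20.6 in 7-month nicotine, 8.80, 6.75 and 8.25 in 18-month saline and 7.29, 8.11 and 8.70 in 18-month nicotine. The ages did not overlap in either infusion, with 7-month saline 2 the lowest at its age. The log2 fold change was -1.18 ± 0.19 in saline and -1.42 ± 0.19 in nicotine (edgeR adjusted p = 0.000764 and 0.000123). Of its sequence, 359 bases are 97.2% identical to the pseudogene Hist3h2bb-ps.

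Hist1h2bc (chr13:23684199-23692908, plus strand) is an H2B gene whose GENCODE model has 2 exons and no stem-loop. It measured 34.7, 23.4 and 40.2 CPM in 7-month saline, 47.7, 30.0 and 38.5 in 7-month nicotine, 21.6, 19.0 and 10.97 in 18-month saline and 12.9, 15.2 and 12.5 in 18-month nicotine. The lowest 7-month value, in saline 2, was close to the highest at 18 months. It was lower at 18 months by -0.93 ± 0.25 in saline and -1.52 ± 0.26 in nicotine (log2, edgeR adjusted p = 0.0112 and 0.000427). The saline call was lost with both 7-month libraries numbered 3 left out, a choice made after seeing the data (-0.76, adjusted p = 0.0632).

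Hist1h2ac, the H2A gene that faces Hist1h2bc across 250 bases, had means of 1.31 ± 0.399 CPM in 7-month saline, 1.33 ± 0.207 in 7-month nicotine, 1.02 ± 0.219 in 18-month saline and 0.760 ± 0.109 in 18-month nicotine. It was called lower in nicotine (log2 -0.80 ± 0.28, edgeR adjusted p = 0.0263) and its saline value was -0.37 (adjusted p = 0.284). The nicotine call was lost under DESeq2 (adjusted p = 0.0645) and without 7-month nicotine 3 or 18-month nicotine 1 (0.0923 and 0.0966).

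The gap between these 2 divergent genes and the start of Hist3h2a are printed because they precede the 2 members with most counts. Each stretch is the 250 bases before the RefSeq start (GRCm38.p6), on the gene's own strand. Capitals mark 3 motifs, each searched on both strands: the CCAAT box, the TATA box spelled TATAAA, and the octamer known from H2B promoters, spelled ATTTGCAT. The capitals of these motifs do not overlap.
Hist1h2ac, chr13:23683960-23684209, minus strand: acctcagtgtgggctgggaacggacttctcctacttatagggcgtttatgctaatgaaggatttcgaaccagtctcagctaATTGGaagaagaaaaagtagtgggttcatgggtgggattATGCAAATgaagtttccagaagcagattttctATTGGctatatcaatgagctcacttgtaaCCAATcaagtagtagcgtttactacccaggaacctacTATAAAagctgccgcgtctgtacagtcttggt
Hist3h2a, chr11:58954435-58954684, plus strand: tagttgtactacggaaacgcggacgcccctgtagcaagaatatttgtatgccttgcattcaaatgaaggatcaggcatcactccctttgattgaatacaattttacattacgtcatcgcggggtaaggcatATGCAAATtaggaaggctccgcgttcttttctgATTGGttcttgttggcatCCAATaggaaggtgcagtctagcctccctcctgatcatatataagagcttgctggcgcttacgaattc
The first stretch, whose left end reaches the start of Hist1h2bc, holds 3 CCAAT boxes, 1 octamer and 1 TATAAA. The second holds 2 CCAAT boxes and 1 octamer, and no match to TATAAA. Over 32851 RefSeq promoters of the same length, 33.8% hold CCAAT, 12.4% TATAAA and 1.60% the octamer, and over the 63 listed for 62 members 82.5%, 46.0% and 22.2% do. These are matches of letters, and binding was not measured.

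Hist2h2be (chr3:96221119-96223738), an H2B gene with no near-identical transcript elsewhere, measured 8.48, 5.67 and 5.19 CPM in 7-month saline, 8.10, 6.42 and 6.75 in 7-month nicotine, 2.99, 4.72 and 3.49 in 18-month saline and 5.13, 5.64 and 4.96 in 18-month nicotine. It was lower with age in saline (log2 -0.79 ± 0.21, edgeR adjusted p = 0.0109), and in nicotine the value was -0.44 (adjusted p = 0.0923). Without 7-month saline 1 the saline call was lost (-0.54, adjusted p = 0.0559). Hist1h2be, an H2B gene, was 3.54 ± 0.195 CPM at 7 months and 1.95 ± 0.644 at 18 months in saline (log2 -0.86 ± 0.29, edgeR adjusted p = 0.0279), and 3.27 ± 1.15 and 2.57 ± 0.289 in nicotine (adjusted p = 0.297). Its saline call was lost without 7-month saline 1 or 3, or 18-month saline 2 or 3 (adjusted p from 0.05 to 0.106). Hist1h2ba, the testis H2B gene, stood at 0.721 ± 0.0909 CPM in 7-month nicotine and 0.214 ± 0.0787 in 18-month nicotine (log2 -1.74 ± 0.44, edgeR adjusted p = 0.00492), and its saline value was -0.93 (adjusted p = 0.110).

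The 2 tested H3 genes fell in both infusions. Hist2h3c1 (chr3:96246685-96248509) measured 6.37, 6.45 and 6.20 CPM in 7-month saline, 6.37, 4.01 and 4.88 in 7-month nicotine, 3.13, 1.98 and 1.90 in 18-month saline and 1.86, 2.24 and 2.98 in 18-month nicotine. Its log2 fold change was -1.44 ± 0.24 in saline and -1.11 ± 0.24 in nicotine (edgeR adjusted p = 0.000892 and 0.00189). Hist2h3c2 (chr3:96238108-96239127) went from 2.48 ± 0.602 to 1.12 ± 0.266 CPM in saline and from 2.94 ± 0.306 to 0.992 ± 0.135 in nicotine (log2 -1.14 ± 0.24 and -1.56 ± 0.25, edgeR adjusted p = 0.00314 and 0.000273). Both genes share long identical stretches with the transcript Gm20634, so reads may be split between them. Hist1h3d, the third H3 gene by counts, was not tested with 12 libraries and ranged from 0.0466 to 0.519 CPM.

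**Figure D3:**
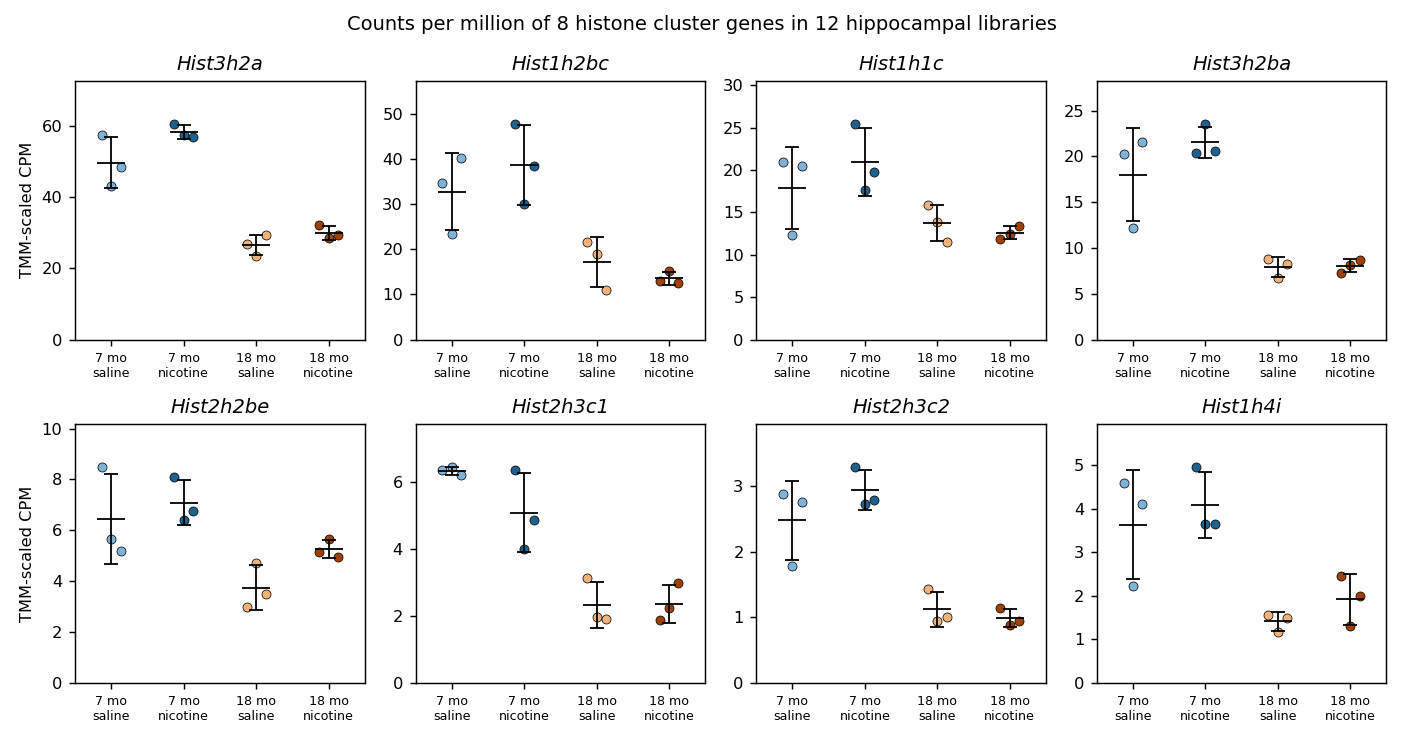
TMM-scaled CPM of 8 members in the 12 libraries (points), with the mean and SD of each group of 3 (bars), each panel on its own axis from 0. For Hist3h2a, Hist3h2ba and Hist2h3c1 all 18-month points lie below all 7-month points.

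The H4 genes did not move one way. Hist1h4i (chr13:22040636-22041362) measured 4.58, 2.21 and 4.11 CPM in 7-month saline, 4.95, 3.65 and 3.64 in 7-month nicotine, 1.56, 1.17 and 1.496 in 18-month saline and 2.46, 1.31 and 1.99 in 18-month nicotine. It fell in both infusions (log2 -1.37 ± 0.30 and -1.09 ± 0.29, edgeR adjusted p = 0.00386 and 0.00719). Hist1h4h, whose GENCODE and RefSeq models both end near the stem-loop, went from 1.26 ± 0.0834 to 0.315 ± 0.0576 CPM in nicotine (log2 -1.97 ± 0.37, edgeR adjusted p = 0.000725). In saline it was 1.25, 0.738 and 1.53 CPM at 7 months and 0.894, 0.855 and 0.408 at 18 months, which overlap (adjusted p = 0.0968). Of the 21 short GENCODE models, that of Hist1h4h is the only 1 with a poly(A) signal (AATAAA or ATTAAA) near its end. Near-identical transcripts exist for 8 other genes.

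Other H4 genes were called higher at 18 months, in saline or in nicotine. Hist4h4 (chr6:136801553-136804415) measured 0.136, 0.117 and 0.112 CPM in 7-month saline and 0.447, 0.540 and 0.499 in 18-month saline (log2 1.98 ± 0.47, edgeR adjusted p = 0.0057). In nicotine it measured 0.242, 0.161 and 0.349 CPM at 7 months and 0.381, 0.140 and 0.520 at 18 months, which overlap (adjusted p = 0.392). All 12 libraries gave it 86 counts, 30 of them at 7 months. Hist1h4k was 0.208, 0.201 and 0.0775 CPM in 7-month nicotine and 0.593, 1.03 and 0.851 in 18-month nicotine (log2 2.30 ± 0.62, edgeR adjusted p = 0.00734). In saline its groups overlap (log2 1.13 ± 0.54, edgeR adjusted p = 0.102). Hist1h4k had 47 counts at 7 months, and 5 other genes have near-identical transcripts.

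The 2 tested linker histone genes of 6 were called in opposite directions in nicotine, and neither was called in saline. Hist1h1c, the H1 gene with most counts, measured 20.9, 12.3 and 20.5 CPM in 7-month saline, 25.4, 17.6 and 19.8 in 7-month nicotine, 15.9, 13.9 and 11.6 in 18-month saline and 11.9, 12.5 and 13.4 in 18-month nicotine. It was called lower in nicotine (log2 -0.73 ± 0.20, edgeR adjusted p = 0.00765) and was -0.38 in saline, where the groups overlap (adjusted p = 0.138). With offsets for transcript length and GC content the nicotine value was -0.30 (adjusted p = 0.117). Hist1h1e was higher in nicotine, 1.25 ± 0.217 CPM at 7 months and 2.59 ± 0.188 at 18 months (log2 1.05 ± 0.29, edgeR adjusted p = 0.00743). Its saline value was 0.41, and the groups overlap (edgeR adjusted p = 0.252). In GENCODE its transcript overlaps Hist1h2be on the same strand over 450 identical bases, while the RefSeq models of these genes do not overlap. Hist1h1d ranged from 0.0388 to 0.415 CPM and was not tested.

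One library decided much of the saline count. In 7-month saline 2, Hist2h4 stood at 1.17 CPM against 0.102 and 0.0747 in the other 7-month saline libraries, and at 1.39, 0.990 and 0.725 in 18-month saline. Hist1h4k stood there at 0.854 CPM against 0.136 and 0.299, and Hist2h2bb at 1.67 against 0.441 and 0.747. Without that library 16 of 21 members tested were called in saline, 11 lower and 5 higher, and all 9 of the first calls were among them. Calls over all genes rose too, from 46.1% to 60.4% of those tested. The added calls were Hist1h1c, Hist1h2ba and Hist1h4h lower and Hist1h1e, Hist1h4k, Hist2h2bb and Hist2h4 higher, the last with a log2 fold change of 3.495 (edgeR adjusted p = 4.57e-05). The part of this library's make-up in these values was not tested.

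**Figure D4:**
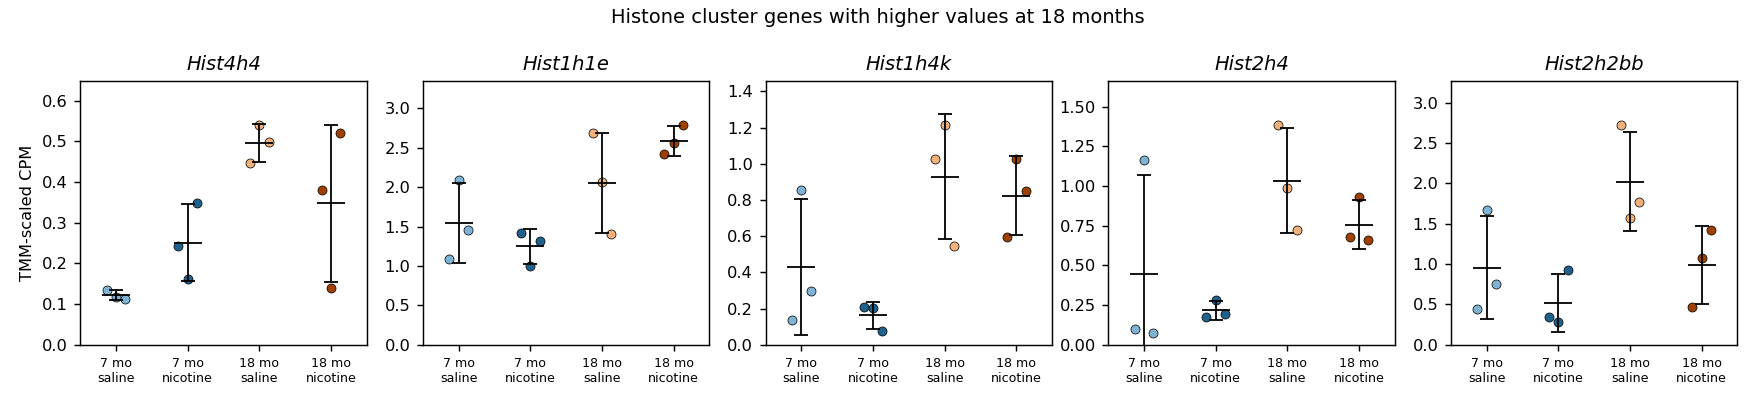
TMM-scaled CPM of 5 members with higher means at 18 months, in 12 libraries (points), with group means and SD (bars). In Hist1h4k, Hist2h4 and Hist2h2bb 7-month saline 2, at 0.854, 1.17 and 1.67 CPM, lies among the 18-month points. For Hist2h2bb 7-month saline 3 (0.747) and nicotine 3 (0.930) do so too.

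The second question was whether the 2 tables differ in how much RNA without a poly(A) tail they hold. Summed over all 70 members, the level was 172, 126 and 167 CPM in 7-month saline (155 ± 25.3), 194.5, 158 and 171 in 7-month nicotine (174 ± 18.5), 104, 91.4 and 83.5 in 18-month saline (93.1 ± 10.6) and 88.6, 90.1 and 93.3 in 18-month nicotine (90.7 ± 2.36). Every 18-month library was below every 7-month library. The log2 ratio of 18 to 7 months was -0.74 in saline and -0.94 in nicotine. By class and in saline, H2A went from 56.0 to 33.0 CPM, H2B from 63.4 to 34.2, H3 from 9.47 to 4.26, H4 from 6.49 to 5.53 and H1 from 19.7 to 16.1.

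The form of the gene model gave different pictures under the 2 annotations. The 21 members whose GENCODE model ends within 75 bases of the stem-loop summed to 4.34 ± 0.522 CPM in 7-month saline, 3.64 ± 0.746 in 7-month nicotine, 3.73 ± 0.528 in 18-month saline and 3.36 ± 0.308 in 18-month nicotine, and its libraries spanned 3.01 to 4.85 CPM at 7 months and 3.08 to 4.09 at 18 months, which overlap. The 22 that run on summed to 107 ± 16.98, 121 ± 8.26, 61.3 ± 5.55 and 64.4 ± 2.54 CPM in the same order. They held 69.0% of the member counts at 7 months and 68.4% at 18 months, and the short models held 2.43% and 3.86%. By RefSeq the 41 members that end at the stem-loop, which include Hist3h2a, Hist3h2ba and Hist1h1c, summed to 108 ± 17.3, 121 ± 8.07, 62.9 ± 5.29 and 65.0 ± 2.68 CPM. The 27 members with no stem-loop in the GENCODE model, Hist1h2bc among them, were not searched for one in RefSeq. They held 28.55% of the member counts at 7 months and 27.72% at 18 months. How much of the count lies in members whose model ends at the stem-loop thus depends on the annotation.

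Of the 19 RNAs listed as ending without a poly(A) tail 5 were tested, and 1 of them was called higher at 18 months in saline and 2 in nicotine. Of all genes, 21.5% and 29.5% were called higher. Rn7sk, the 7SK RNA that holds back the elongation factor P-TEFb, measured 1.63, 1.32 and 62.9 CPM in 7-month saline, 1.70, 2.25 and 36.6 in 7-month nicotine, 159, 174 and 250.4 in 18-month saline and 158, 203 and 196 in 18-month nicotine. Rmrp and Rpph1, the RNA parts of the RNA-cutting enzymes RNase MRP and RNase P, were also low in 4 of the 7-month libraries. Rmrp was 0.0678 to 0.201 CPM there, 7.25 and 3.30 in those numbered 3, and 6.17 to 10.6 at 18 months. Rpph1 was 0.0692 to 0.237, then 8.89 and 4.73, and 7.67 to 13.8. For both, 7-month saline 3 lay within the 18-month range, whereas for Rn7sk both libraries numbered 3 lay below it. Malat1, a nuclear RNA with a triple-helix end in place of a tail, was 282 to 384 CPM in all 7-month libraries and 5157 to 6309 at 18 months. It rose by 3.95 in saline and 4.26 in nicotine on the log2 scale (edgeR adjusted p = 4.39e-09 and 2.13e-09). Rn7sk, with the wide spread of its 7-month values, was called in nicotine (3.79, adjusted p = 0.0254) and had an adjusted p of 0.0585 in saline. Rmrp, Rpph1 and Rn18s-rs5, a ribosomal RNA, did not pass in either infusion, with log2 fold changes of 1.75, 1.77 and 1.95 in saline (edgeR adjusted p = 0.230, 0.239 and 0.226) and 2.68, 2.45 and 2.91 in nicotine (0.0782, 0.111 and 0.0745). Rn18s-rs5 was also split within the 7-month table, at 451 to 712 CPM in 4 libraries and 18139 and 8313 in saline 3 and nicotine 3. At 18 months it was 21849 to 27362 CPM.

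In the 7-month libraries numbered 3, Rn7sk was 36.5 times (saline) and 21.2 times (nicotine) the mean of the other 4, while the histone sum was 1.03 and 1.05 times that mean and the sum of the short GENCODE models 1.08 and 0.856 times. Whether the histone sum goes with Rn7sk within the 7-month table was not tested. Not every tail-less class was higher at 18 months: tRNA rows summed to 334 to 508 CPM (scaled by total counts) at 7 months and 217 to 317 at 18 months, and snoRNA rows to 69.1 to 78.8 and 52.2 to 59.3. The part of library making in these differences was not tested.

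**Figure D5:**
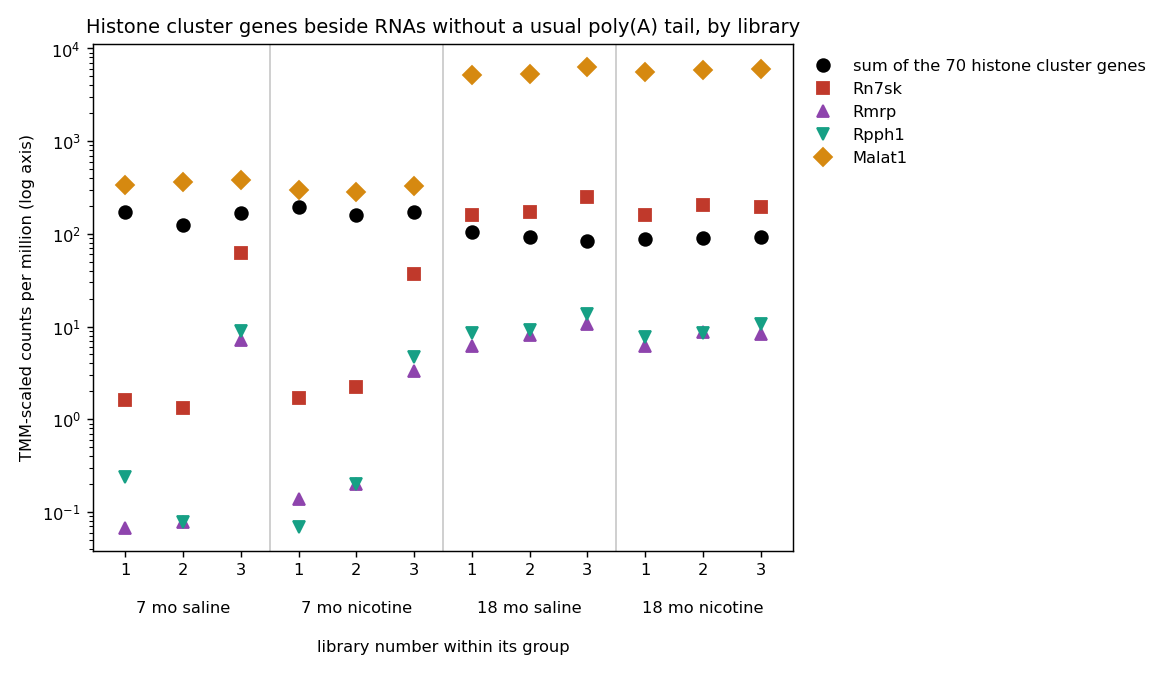
TMM-scaled CPM (log axis) of the summed 70 histone cluster genes and of Rn7sk, Rmrp, Rpph1 and Malat1 in each library. The histone sum lies at 126 to 194.5 CPM in the 7-month libraries and 83.5 to 104 in the 18-month ones, while Rn7sk goes from 1.32 in the lowest to 250.4 in the highest.

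Genes that work with the histone genes were described from lists set with the design. Of the 11 genes listed as replacement histones, 7 were lower in saline and 10 in nicotine, and 0 were higher. Of all genes, 24.6% were lower and 21.5% higher in saline, and 29.8% and 29.5% in nicotine. The median log2 fold changes of the 11 genes were -0.64 and -0.80. H3f3a, which encodes H3.3, was 132 ± 24.03 CPM in 7-month saline and 60.5 ± 1.27 in 18-month saline (log2 -1.13, edgeR adjusted p = 8.33e-05), and 140 ± 7.62 and 63.8 ± 3.82 in nicotine (-1.13, adjusted p = 3.83e-05). H2afz, which encodes H2A.Z, fell by 0.74 in saline and 0.80 in nicotine on the log2 scale (edgeR adjusted p = 0.000725 and 0.000199).

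Of 16 factors that act on histone mRNA ends or transcription, 6 were lower and 1 higher in saline, and 7 were lower and 5 higher in nicotine. Of all genes, 24.6% were lower and 21.5% higher in saline, and 29.8% and 29.5% in nicotine. Slbp, which encodes the stem-loop binding protein, was 19.4 ± 1.98 CPM in 7-month saline, 19.5 ± 0.938 in 7-month nicotine, 14.4 ± 0.561 in 18-month saline and 13.7 ± 0.552 in 18-month nicotine. It fell by 0.43 and 0.51 on the log2 scale (edgeR adjusted p = 0.00388 and 0.000796). Casp8ap2, whose protein FLASH acts in histone pre-mRNA cleavage, measured 6.61, 14.8 and 6.95 CPM in 7-month saline and 14.7, 15.6 and 15.3 in 18-month saline. It was called higher in both infusions (0.69 and 1.03, edgeR adjusted p = 0.0364 and 0.00349), with 7-month saline 2 again at the 18-month level.

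Of 23 tested S-phase genes, 6 were lower in each infusion, shares close to those of all genes (24.6% and 29.8%), and 1 was higher in saline (Tk1, named after its values were seen) and 0 in nicotine. Pcna, the sliding clamp of DNA replication, went from 40.3 ± 3.47 to 28.0 ± 1.19 CPM in saline (log2 -0.53, edgeR adjusted p = 0.00751). Of the 5 cycling-cell markers 3 were tested and 1 was called. Mki67 was higher in both infusions (1.00 and 1.10, edgeR adjusted p = 0.00424 and 0.00156), Top2a was at 0.42 and 0.20 (adjusted p = 0.251 and 0.595) and Birc5 at -0.21 and -0.73 (0.613 and 0.0782). The untested Cdk1 and Ccnb1 had lower means at 18 months than at 7 in both infusions.

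Marker lists of neurons and of other tissue held genes that differed with age as well, as did 46.1% of all genes in saline and 59.3% in nicotine. Of the 7 neuron markers, Neurod6, Snap25 and C1ql2 were lower in saline, and Snap25 and Fibcd1 in nicotine. Zbtb20, named after its values were seen, was 3.22 to 6.39 CPM in the 7-month libraries and 109 to 129 in the 18-month ones (log2 4.71 in saline and 4.996 in nicotine, edgeR adjusted p = 2.07e-07 and 1.28e-07), and Prox1 was higher in nicotine (1.73, adjusted p = 0.000511). Of the 5 red blood cell genes 3 were lower in each infusion, and their sum was 138 to 351 CPM at 7 months and 35.4 to 129 at 18 months. The leukocyte gene S100a8 was lower in both infusions and S100a9 in nicotine, and the summed leukocyte list was 2.17 to 3.61 CPM at 7 months and 0.317 to 2.20 at 18 months. The pituitary genes Gh and Pomc were lower in nicotine, where 7-month nicotine 1 held them at 89.6 and 68.6 CPM and the other 2 libraries at 1.51 or less, and that list summed to 0.66 to 1.83 CPM in 7-month saline, 1.48 to 172 in 7-month nicotine and 0.373 to 1.80 at 18 months. All 5 choroid plexus genes had log2 fold changes below 0 and 0 were called, with sums of 56.5 to 6114 CPM at 7 months and 19.99 to 1499 at 18 months. No listed marker was at 0 in every library. The part of these cell types in the histone differences was not tested.

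The third question was whether nicotine changed these genes. At 7 months 0 of 18 tested members passed the adjusted p in edgeR, which called 0.0114% of all genes. DESeq2 called 0 members and 0.46% of all genes. An unadjusted p under 0.05 in edgeR was reached by 0 members and by 6.5% of all genes. The largest member, Hist3h2a, was 49.6 ± 7.17 CPM in saline and 58.2 ± 1.93 in nicotine (log2 0.22 ± 0.12, edgeR adjusted p = 0.656). Groups did not overlap for 1 member, Hist1h2ba, against 17.4% of all genes. It measured 0.543, 0.233 and 0.598 CPM in saline and 0.623, 0.803 and 0.737 in nicotine (0.63 ± 0.38, adjusted p = 0.656). The summed members gave a log2 ratio of nicotine to saline of 0.17, and 0.04 without 7-month saline 2.

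At 18 months edgeR and DESeq2 each called 0 of 18 members, where edgeR called 0.044% of all genes and DESeq2 0.313%. In edgeR 3 members had an unadjusted p under 0.05, as did 6.73% of all genes, and their groups did not overlap, against 11.8% of all genes without overlap. Hist2h2bb was 2.73, 1.57 and 1.77 CPM in saline and 0.466, 1.07 and 1.42 in nicotine (log2 -1.06 ± 0.37, edgeR adjusted p = 0.657). Hist1h2al, a pseudogene, was 3.08, 2.7 and 2.54 CPM in saline and 0.297, 1.31 and 1.94 in nicotine (-1.26 ± 0.45, adjusted p = 0.661). Hist2h2be was higher in each nicotine library than in each saline library (0.47 ± 0.18, adjusted p = 0.686), from 3.74 ± 0.891 to 5.24 ± 0.355 CPM. The first 2 of these have near-identical copies (Gm20628 and Gm20632). The summed members gave a log2 ratio of -0.04, and 0.05 without 18-month saline 1.

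The nicotine effect at 18 months minus that at 7 months, which is also the age effect in nicotine minus that in saline, was called for 0 of 20 members, and for 0.00522% of all genes. DESeq2 called 0 as well, and 0.193% of all genes. In edgeR 2 members had an unadjusted p under 0.05, as did 7.85% of all genes. They were Hist1h4h (log2 difference -1.27 ± 0.50) and Hist4h4 (-1.52 ± 0.66), both with an edgeR adjusted p of 0.623. A member called for age in 1 infusion and not in the other is thus not shown to differ between them. Hist2h2aa2, an H2A gene, had means of 1.91 ± 0.325 and 1.49 ± 0.442 CPM at 7 months and 1.81 ± 0.276 and 1.42 ± 0.284 at 18 months in saline and nicotine, with edgeR adjusted p-values of 0.841 in saline and 0.816 in nicotine for age and a log2 difference of -0.01. Hist1h2bg, an H2B gene, stood between 0.233 and 0.621 CPM in all 12 libraries and was not called in any of the 5 comparisons.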

How the data were processed

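Hippocampal RNA was measured in 12 libraries of 4 groups, 3 per group, assigned from the labels. The deposited tables, 1 per age, hold the authors' raw fragment counts per gene, not normalized. Alignment was with TopHat to GRCm38, per the submitters' processing notes. The counting tool, annotation, strand setting and any selection of poly(A) RNA are not given in the sources used here, and the labels' protocols describe a small RNA kit with size selection. Strands and near-identical copies cannot be told apart: 60 of 70 members share at least 200 bases at 95% identity or more with another gene's transcript (BLAST 2.17.0).

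The tables (44788 and 44786 genes) were joined on 44760 shared names. Tests used edgeR 4.0.16 in R 4.3.3 (TMM, filterByExpr, quasi-likelihood F-test, Benjamini-Hochberg over all genes tested). Age and the difference came from 4 group means over 12 libraries, nicotine from the 6 libraries of each age. The fit was tested on simulated data in which few genes changed. That setting is unlike the age comparisons, which called 46.1% of all genes in saline and 59.3% in nicotine. GENCODE M21 and RefSeq gave gene models, and every member matched a RefSeq gene. The 75-base split was chosen after seeing the models. The members and lists were chosen with earlier results of these data known.

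Named members were the 3 with most CPM per class, the 5 with smallest p per comparison and all called in the nicotine comparisons or called lower with age. Hist1h4k, Trim17 and the others so marked were named after their values were seen. Replicate numbers were not used as pairs: same-number libraries had correlations of -0.0976 to 0.196. Alternatives were RLE size factors, total counts, no filter, DESeq2 1.42.0, a replicate block, libraries left out, offsets for length and GC content, and other sets of libraries per fit. No columns were left unmatched to a sample.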

Additional observations from a re-analysis of the deposited data

How the results depend on the processing

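The count of members called for age in saline was 9 and ranged from 7 to 16 with 1 library left out. It was highest without 7-month saline 2 (11 lower, 5 higher). Over all genes 46.1% were called, with a range of 32% to 60.4%. In nicotine the count was 12 and ranged from 11 to 13. Over all genes 59.3% were called there, with a range of 51.5% to 64.9%. With a replicate block the counts were 9 in saline and 13 in nicotine (44.4% and 57.5% of all genes). They were 0 in the other comparisons, and the block lost no named call. RLE size factors gave 9 and 12 (45.5% and 58.9% of all genes), and total counts 9 and 12 (45.3% and 58.7%). No filter gave 11 and 14, 3 and 4 of them higher (27.3% and 35%), and DESeq2 9 and 12 (46.1% and 58.4%). Offsets for length and GC content gave 8 and 10 (39.4% and 48.6%). Fits of the 6 libraries of an infusion gave 7 and 14 (29.5% and 64.8%). Leaving out 7-month saline 1 and nicotine 1, whose labels have another prefix, gave 7 and 12 (30.3% and 54.2%). An alternative added after seeing the data, without both 7-month libraries numbered 3, gave 7 and 12 (30.3% and 53.5% of all genes). Another left out 7-month saline 2 as well, so the lone 7-month saline library is assumed to vary like the others. Hist4h4 had a saline log2 fold change of 1.86 there. The nicotine comparisons and the difference kept 0 members called under each alternative run, where at most 0.46% of all genes were called. The summed members' log2 ratio for nicotine at 18 months was -0.04, and -0.28 over the members other than those that run past the stem-loop in GENCODE. The cause was not tested. Hist2h2be lost its saline call in the 6-library fit (-0.77, adjusted p = 0.0601), and Hist1h2be there and with the offsets (0.0525 and 0.0519). No direction of a named member reversed. Depth limits the 50 members that could not be tested with 12 libraries, and statements on depth cover counting error alone.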
